A study of Mus musculus with 13 samples.

Results

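The early response of mouse prostate progenitor/stem cells to 1,25-dihydroxyvitamin D3 (1,25D, written 1,25(OH)2D3 in the labels) is described here from the 6 arrays taken 6 h after treatment. These are the 3 arrays titled as 1,25(OH)2D3 treatment at that time and the 3 titled as ethanol treatment, out of 13 arrays in all. The other 7 arrays, from 48 h, served for the estimate of the spread between arrays and for the comparison of the 2 times. The cells were a culture at passage 22 from 10 wk old mice with the genotype wild-type B1/6; 127/SVEV, and all groups share this source. At 70% confluency they received 100 nM 1,25D or the vehicle, 0.1% ethanol. Cells of the 6 h groups were exposed for that time, and both 48 h groups received their medium every 24 h, so the 2 times differ in dosing too. The labels name 1 culture history and do not say if the replicates were grown separately, so p-values measure only the spread between these arrays, which may be technical. Total RNA, 5 ug for each sample, was labelled with biotin and hybridised to a mouse oligonucleotide array. The deposited values are log2 signals, and each gene is read from its brightest probe set, taken by the mean over the 13 arrays, which gave 18193 genes. The comparison asks which transcripts differ between hormone and vehicle at the earlier of the 2 times.

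The hormone 1,25D acts through the vitamin D receptor, a nuclear receptor that binds DNA with a retinoid X receptor at direct repeats of a hexamer and changes the transcription of nearby genes. Its classical target is Cyp24a1, whose enzyme hydroxylates and inactivates the hormone, so that the signal limits itself. In epithelial cells the receptor is known for effects on proliferation, differentiation and inflammatory gene expression. Within hours, both direct targets and genes downstream of them can move, and the arrays do not tell these apart.

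Array quality and cell identity were examined first. The 6 h arrays are written V1 to V3 (vehicle) and D1 to D3 (1,25D) by replicate number. Pairwise Pearson correlations between the 6 arrays over all probe sets ran from 0.977 to 0.995, and vehicle replicate 1 was in every pair at or below 0.983. That array had an interquartile range of 3.03 on the log2 scale against 3.27 to 3.40 in the other 5, and it stood apart on the second principal component of all 13 arrays (22.97% of the variance) together with 1,25D 48 h replicate 4. Counts without these 2 arrays are given beside the main counts, and for a gene list wherever they differ. Of 19 measured basal cell markers, 17 lay above the array's median gene on all 6 arrays, with log2 signals of at least 13.93 on each array for the basal keratin Krt14. Of 22 measured luminal and secretory genes, 8 lay above the median gene on all 6 arrays. Of 24 measured stem and progenitor cell markers, 12 did. The luminal keratins Krt8 (13.59 to 13.83) and Krt18 (13.40 to 13.52) and the epithelial adhesion gene Epcam (12.04 to 12.35) were bright, whereas the secretory prostate gene Pbsn was dim (3.60 to 3.84). Probe sets differ in brightness, so such positions are coarse. Above the median gene on all 6 arrays were 3 of 18 stromal, 1 of 16 immune, 1 of 11 endothelial and 2 of 11 neuroendocrine or nerve markers. No member of these 4 lists was called. Only 0.852% of all genes were called, so lists this short can hold none at that share. The mean log2 signal of the immune list was 5.23 to 5.52 in vehicle and 5.17 to 5.36 in treated arrays, and that of the stromal list 5.72 to 5.96 and 5.76 to 5.82. Endothelial markers lay at 5.04 to 5.45 and 5.02 to 5.15, and neuroendocrine or nerve markers at 5.43 to 5.51 and 5.36 to 5.47.

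After 6 h, 155 genes differed between 1,25D and vehicle by limma at an adjusted p under 0.05 (called), which is 0.852% of the genes tested. Rises outnumbered falls, with 125 genes higher (0.687% of genes) and 30 lower (0.165%). The change was at least 2-fold in 75 of the rises and 18 of the falls (0.511% of genes together), and at least 4-fold in 8 rises and 1 fall. The median change was 1.11 over the called rises and -1.03 over the called falls on the log2 scale, against -0.02 over all genes. All 155 separated the 3 treated from the 3 vehicle arrays completely, as did 10.2% of all genes (5.68% higher and 4.51% lower). Without the 2 arrays that stand apart, 140 genes were higher and 108 lower, and 115 of the 125 rises and all 30 falls were among them. Without vehicle 6 h replicate 1 alone, 57 genes were lower, and without 1,25D 6 h replicate 1, 18 were lower. With only the 6 h arrays in the fit, 59 genes were higher and 9 lower, so many calls rest on the spread shared with the 48 h arrays. Of the 155 genes, 78 rises and 14 falls were called whichever of the 13 arrays was left out. A further probe set existed for 92 of the called genes, and 167 of these 188 other probe sets changed in the same direction, 59 of them called and 0 called the opposite way.

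**Figure D1:**
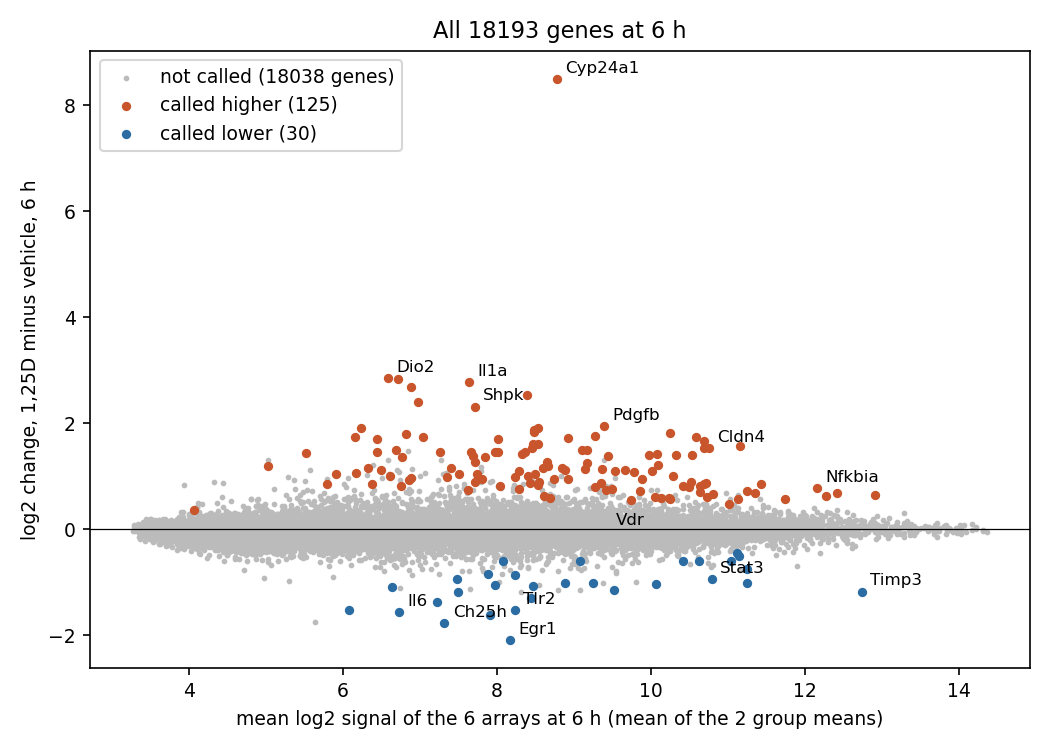
Log2 change at 6 h (1,25D minus vehicle, vertical axis) against the mean log2 signal of the 6 arrays (horizontal axis) for all 18193 genes. Orange points are the 125 called rises, blue points the 30 called falls and grey points genes not called; Cyp24a1 stands at 8.50, far above the other rises, while Vdr lies near 0.

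Cyp24a1, the enzyme that breaks down 1,25D, was the largest rise by a wide margin. Its log2 signal was 4.78, 4.41 and 4.40 in the vehicle arrays and 13.05, 13.21 and 12.81 in the treated arrays. The groups were thus separated by a log2 change of 8.50 (SE 0.20, n = 3 and 3, adjusted p = 3.3e-11 by limma). Vehicle signals lay at the 25.9 percentile of all probe sets, near background, and the fold change was 361 on this probe set. The other Cyp24a1 probe set changed by 5.65 on the log2 scale, so the size of the rise depends on the probe set. The receptor gene Vdr was measured at 9.16, 9.68 and 9.53 in vehicle and 9.37, 9.57 and 9.29 in treated arrays, which overlap (adjusted p = 0.979 by limma). With 3 arrays against 3 a two-sided exact permutation test cannot go below p = 0.1, the value reached by Cyp24a1 and Il1a.

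The next largest rises were signalling, hormone and matrix genes. Dio2, the deiodinase that converts the prohormone thyroxine into active thyroid hormone, went from 4.99, 5.23 and 5.26 to 7.83, 8.34 and 7.87, and its other probe sets changed by 0.37 and 1.83. Prelp, a leucine-rich matrix proteoglycan, went from 5.36, 5.48 and 5.04 to 8.06, 8.49 and 7.86. Il1a, the epithelial cytokine interleukin-1 alpha, went from 6.16, 6.25 and 6.31 to 8.98, 8.91 and 9.17. These genes gained 2.85, 2.84 and 2.78 on the log2 scale, and in each the lowest treated array was over 2 log2 units above the highest vehicle array. The other probe set of Prelp changed by 0.77, and with only probe sets without several matches Prelp was not called (adjusted p = 0.0742 by limma). Apcdd1, which inhibits Wnt signalling at the membrane, rose from 5.39, 5.67 and 5.55 to 8.05, 8.46 and 8.16, and its 5 other probe sets changed by 0.00 to 2.09. Vstm5, a membrane protein with an immunoglobulin-type domain, rose from 6.69, 7.48 and 7.20 to 9.70, 9.60 and 9.67. In Vstm5 the vehicle arrays varied more (SD 0.402) than the treated arrays (SD 0.0547).

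Further rises covered protein turnover, metabolism and growth control. Rnf152, a lysosomal ubiquitin ligase, rose by 2.40 (SE 0.25). Shpk, a kinase that phosphorylates sedoheptulose next to the pentose phosphate pathway, went from 6.39, 6.67 and 6.60 to 8.71, 8.93 and 8.96. Pdgfb, the B chain of platelet-derived growth factor, went from 8.24, 8.37 and 8.66 to 10.50, 10.32 and 10.27. Klk6, a secreted kallikrein protease, rose by 1.92, and its 3 treated arrays (9.79, 9.17 and 9.52) varied more than its vehicle arrays (7.58, 7.56 and 7.60). Smox, the spermine oxidase of polyamine breakdown, rose from 9.17, 9.31 and 9.56 to 11.31, 10.96 and 11.19. Dexi, named for its induction by dexamethasone, was among the tightest rises, from 7.62, 7.45 and 7.62 to 9.40 in each treated array. All of these genes were called without any 1 of the 13 arrays.

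The remaining genes among the 25 largest rises gained between 1.61 and 1.90 on the log2 scale. They included Rassf2 (1.90), a Ras-association protein, and Tns4 (1.75), a tensin of focal adhesions. Transcriptional regulators were the zinc finger factor Osr1 (1.87), the stress-inducible chromatin protein Nupr1 (1.66) and Mdfi (1.61), an inhibitor of myogenic factors. Ccng2, an atypical cyclin known from growth-arrested cells, rose from 5.70, 6.20 and 6.63 to 7.77, 7.97 and 7.99. Mindy2 (1.76), a deubiquitinase, Gdpd5 (1.71), a glycerophosphodiester phosphodiesterase, and Tmem86a (1.62), an enzyme of plasmalogen breakdown, act in protein and lipid turnover. Membrane proteins were the adhesion receptor Adgra1 (1.73), the giant cadherin Fat4 (1.71) and Lrrc26 (1.70), a subunit of potassium channels. Fat4 lost its call without D3 (adjusted p = 0.0671 by limma). Mdfi lost its call without V2, V3, D1, D2 or D3 (adjusted p up to 0.0985 by limma), and its other probe set changed by 0.28. The 2 other probe sets of Rassf2 changed by 0.24 and 0.18.

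**Figure D2:**
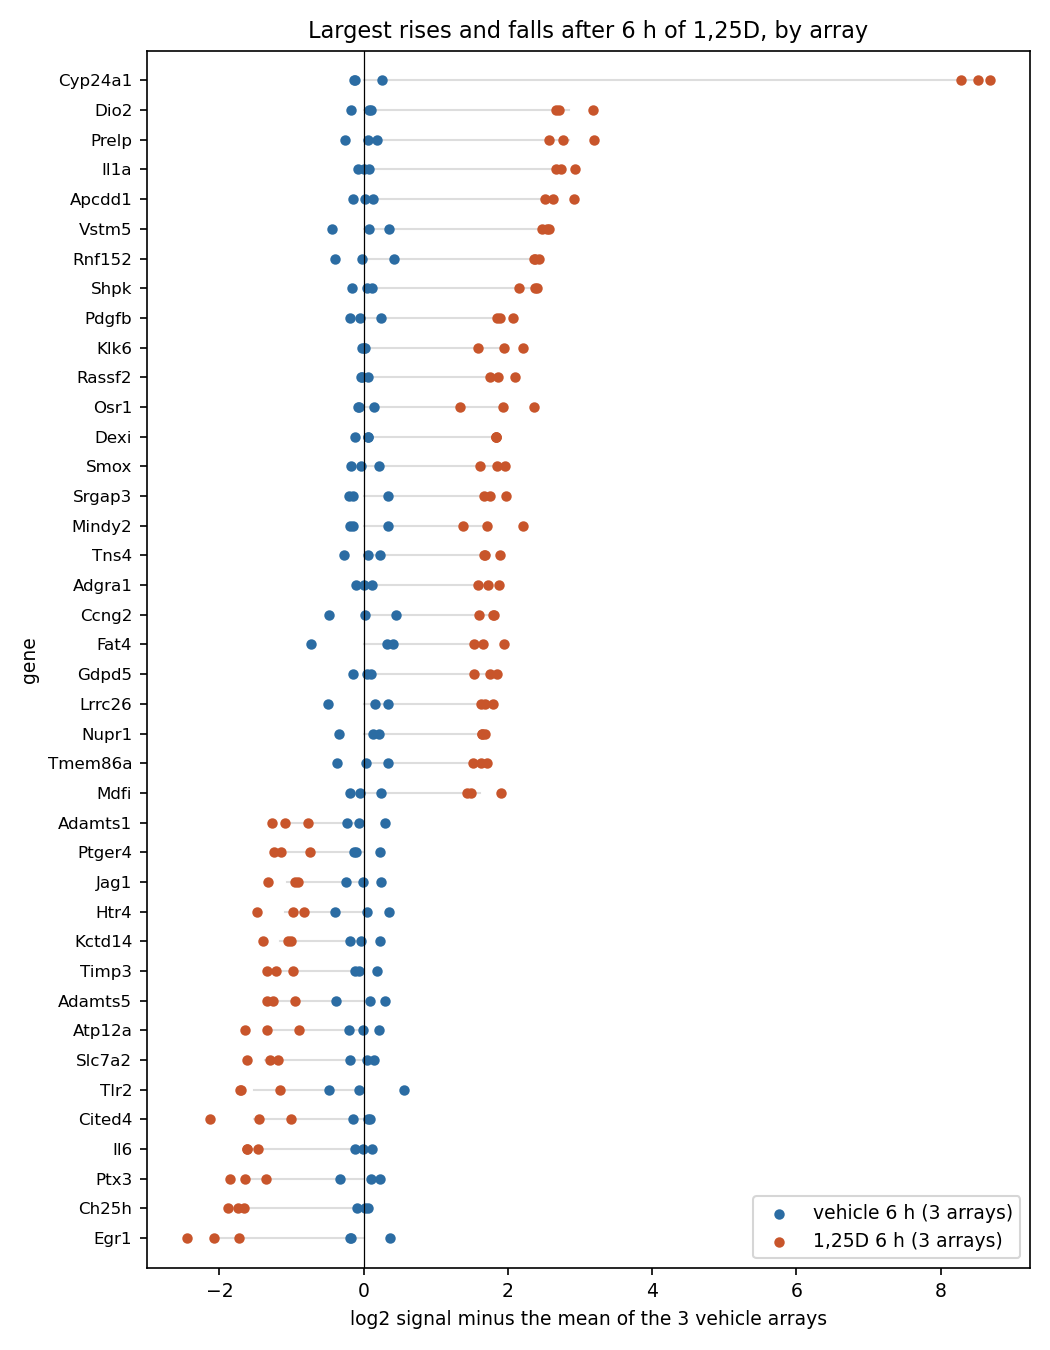
Log2 signal of each 6 h array minus the mean of the 3 vehicle arrays (horizontal axis) for the 25 largest rises and 15 largest falls (vertical axis, ordered by change). Blue points are vehicle arrays and orange points 1,25D arrays, and grey lines join the group means. The colours do not overlap in any of the 40 genes because the choice of genes required it. Among all genes, 10.2% separate in this way.

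Sequence before the start of these genes was searched because the receptor binds direct repeats. The 250 bases upstream of the start came from the RefSeq promoter table (GRCm38.p6), which held 98 of the 125 rises and 21 of the 30 falls. The motif was 2 hexamers in the same orientation with 3 bases between them, each hexamer reading A or G, then G, then G or T, then T, then C or G, then A. Both strands were read, matches may overlap, and at most 1 of the 12 hexamer bases could differ. Such a repeat stood in 4.08% of the rises with a window and in 5.29% of all 14452 array genes with one. A repeat without any differing base stood in 0 rises, 0 falls and 0.221% of all genes. The rises thus held the repeat about as often as genes in general, and no match says only that these letters are absent from this window. Windows that held a repeat are shown for 3 of the named rises, 5′ to 3′ along the gene, with the hexamers in capitals. In Vstm5 both matches share the middle hexamer, and in all 3 genes the match reads on the strand opposite to the gene.
Vstm5, chr9:15238795-15239044, plus strand: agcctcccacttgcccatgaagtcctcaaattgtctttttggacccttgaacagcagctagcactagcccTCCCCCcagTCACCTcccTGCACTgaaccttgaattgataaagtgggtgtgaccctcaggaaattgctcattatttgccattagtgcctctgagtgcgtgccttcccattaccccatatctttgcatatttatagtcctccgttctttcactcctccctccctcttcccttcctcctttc
Cldn4, chr5:134946935-134947184, minus strand: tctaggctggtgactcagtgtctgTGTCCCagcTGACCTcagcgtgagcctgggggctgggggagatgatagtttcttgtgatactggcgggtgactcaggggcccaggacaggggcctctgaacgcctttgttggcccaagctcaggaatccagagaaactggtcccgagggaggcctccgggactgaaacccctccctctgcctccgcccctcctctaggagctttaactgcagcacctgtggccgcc
Csta1, chr16:36131190-36131439, minus strand: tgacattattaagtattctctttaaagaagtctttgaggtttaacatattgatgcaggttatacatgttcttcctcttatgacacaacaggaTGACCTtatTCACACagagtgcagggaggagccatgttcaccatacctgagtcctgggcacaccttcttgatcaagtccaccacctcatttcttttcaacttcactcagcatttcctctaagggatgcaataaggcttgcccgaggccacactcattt

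The 15 largest falls were led by Egr1, an immediate early transcription factor induced by growth factor signals. Its log2 signal was 9.04, 9.02 and 9.57 in vehicle and 7.13, 7.48 and 6.76 in treated arrays, a change of -2.09 (SE 0.18, adjusted p = 4.06e-05 by limma). Ch25h, which makes the immune oxysterol 25-hydroxycholesterol, fell from 8.22, 8.26 and 8.11 to 6.31, 6.45 and 6.54. Timp3, an inhibitor of metalloproteinases bound to the matrix, fell from 13.21, 13.51 and 13.26 to 11.99, 12.35 and 12.11. Slc7a2, a carrier of cationic amino acids, fell from 7.73, 7.96 and 8.05 to 6.29, 6.61 and 6.72, and its 3 other probe sets changed by -0.61, -0.29 and -0.32. Atp12a, the catalytic subunit of a proton pump that exchanges potassium, fell by 1.29 on the log2 scale. The aggrecanases Adamts5 (-1.18) and Adamts1 (-1.04) fell as well. Kctd14 (-1.16) and the serotonin receptor Htr4 (-1.10) complete the group together with Ptx3, Il6, Tlr2, Cited4, Jag1 and Ptger4, which are described with their lists. Adamts5 lost its call without V2, V3, D1 or D3 (adjusted p up to 0.151 by limma). The same 4 arrays decided Htr4 (adjusted p up to 0.135 by limma), whose other probe set changed by 0.08.

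Genes of innate signalling moved in both directions. Each list is given by its called members and its median, beside 0.852% of all genes called and a median change of -0.02 over all genes. Counts of members at an unadjusted p under 0.05 are to be read beside 7.01% of all genes at that p. Of 25 measured genes of the interleukin-1 family and its receptors, 2 rose and 0 fell (median 0.03). Besides Il1a the member that rose was Il33, an alarmin stored in epithelial nuclei, from 5.38, 5.43 and 5.36 to 6.12, 6.56 and 6.60. The antagonist Il1rn changed by -0.18 without passing the test. Of 28 pattern receptors and innate effectors, 0 rose and 3 fell (median -0.02): Ch25h, Ptx3 and Tlr2. Ptx3, a soluble pattern recognition molecule, fell from 8.94, 8.38 and 8.81 to 7.06, 6.86 and 7.36, although its other probe set changed by only -0.28. Tlr2, a receptor for bacterial lipoproteins, fell from 8.51, 9.55 and 8.93 to 7.30, 7.83 and 7.28, and it lost its call without D1 or D3 (adjusted p up to 0.0631 by limma).

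In the list of IL-6 family and Stat3 signalling, 0 of 22 measured members rose and 2 fell, with a median of -0.17. The cytokine gene Il6 fell from 7.39, 7.50 and 7.62 to 5.88, 5.89 and 6.04, with no overlap and an SD of 0.114 in vehicle. Stat3, the transcription factor activated by this cytokine family, fell from 11.02, 11.41 and 11.34 to 9.95, 10.48 and 10.53. Stat3 lost its call without V2 (adjusted p = 0.0514 by limma) or when only probe sets without several matches were used, and its 3 other probe sets changed by -0.32, -0.12 and -0.56. Socs3, a feedback inhibitor induced by Stat3, changed by -0.74 without passing the test (adjusted p = 0.268 by limma). Without the 2 arrays that stand apart, 3 members of this list were lower: Il6, Stat3 and Socs3. Socs3 then changed by -0.98 (adjusted p = 0.00229 by limma).

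Among 18 NF-kB subunits and inhibitors 1 rose and 0 fell, with a median of -0.11 and 9 members at an unadjusted p under 0.05. The riser was Nfkbia, which encodes the inhibitor that holds NF-kB in the cytoplasm and is itself an NF-kB target. Its signal went from 11.82, 11.49 and 12 to 12.52, 12.61 and 12.52, and its 4 other probe sets changed by 0.49 to 0.98. Nfkb2 (-0.61) and Nfkbie (-0.74) did not pass the test. Without the 2 arrays that stand apart, 1 member of the list was higher and 2 were lower, namely Nfkb2 and Nfkbie. These then changed by -0.72 and -0.90 (adjusted p = 0.0328 and 0.0151 by limma). Of 37 chemokines and receptors 1 rose, the membrane-bound chemokine Cx3cl1 (7.64, 8.35 and 8.08 to 9.26, 9.22 and 9.06), and 0 fell. Its other probe sets changed by 0.90, 0.08 and -0.01. Ccl20 (-0.76) and Ccl2 (-0.77) did not pass the test (adjusted p = 0.126 and 0.137 by limma). Ccl6, a chemokine of myeloid cells that lay outside this list, was called higher (1.11, adjusted p = 0.0461 by limma) and lost its call without any 1 of 11 of the 13 arrays (adjusted p up to 0.241). Of 21 prostaglandin genes 0 rose and 1 fell: Ptger4, a receptor for prostaglandin E2, from 8.40, 8.37 and 8.73 to 7.36, 7.75 and 7.26. Ptger4 lost its call without V3, D1 or D3 (adjusted p up to 0.134 by limma).

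The upstream windows of Il6, which fell, and Nfkbia, which rose, are shown because both are textbook NF-kB targets that moved in opposite directions. Capitals mark the kappa B consensus, read on both strands, so that a palindromic site counts on each strand and shifted matches overlap. That consensus stood in 36.7% of the rises, 38.1% of the falls and 30.8% of all array genes with a window. A match is a description and not a measured binding site.
Il6, chr5:30012864-30013113, plus strand: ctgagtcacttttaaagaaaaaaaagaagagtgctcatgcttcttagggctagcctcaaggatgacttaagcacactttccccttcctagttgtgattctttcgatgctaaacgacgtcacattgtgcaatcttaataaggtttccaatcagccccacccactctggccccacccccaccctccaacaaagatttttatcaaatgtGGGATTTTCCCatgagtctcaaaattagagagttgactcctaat
Nfkbia, chr12:55492648-55492897, minus strand: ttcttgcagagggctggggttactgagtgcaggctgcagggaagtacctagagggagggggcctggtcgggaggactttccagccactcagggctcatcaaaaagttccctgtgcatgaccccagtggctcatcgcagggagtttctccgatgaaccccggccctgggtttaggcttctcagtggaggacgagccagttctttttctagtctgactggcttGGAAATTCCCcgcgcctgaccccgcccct

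**Figure D3:**
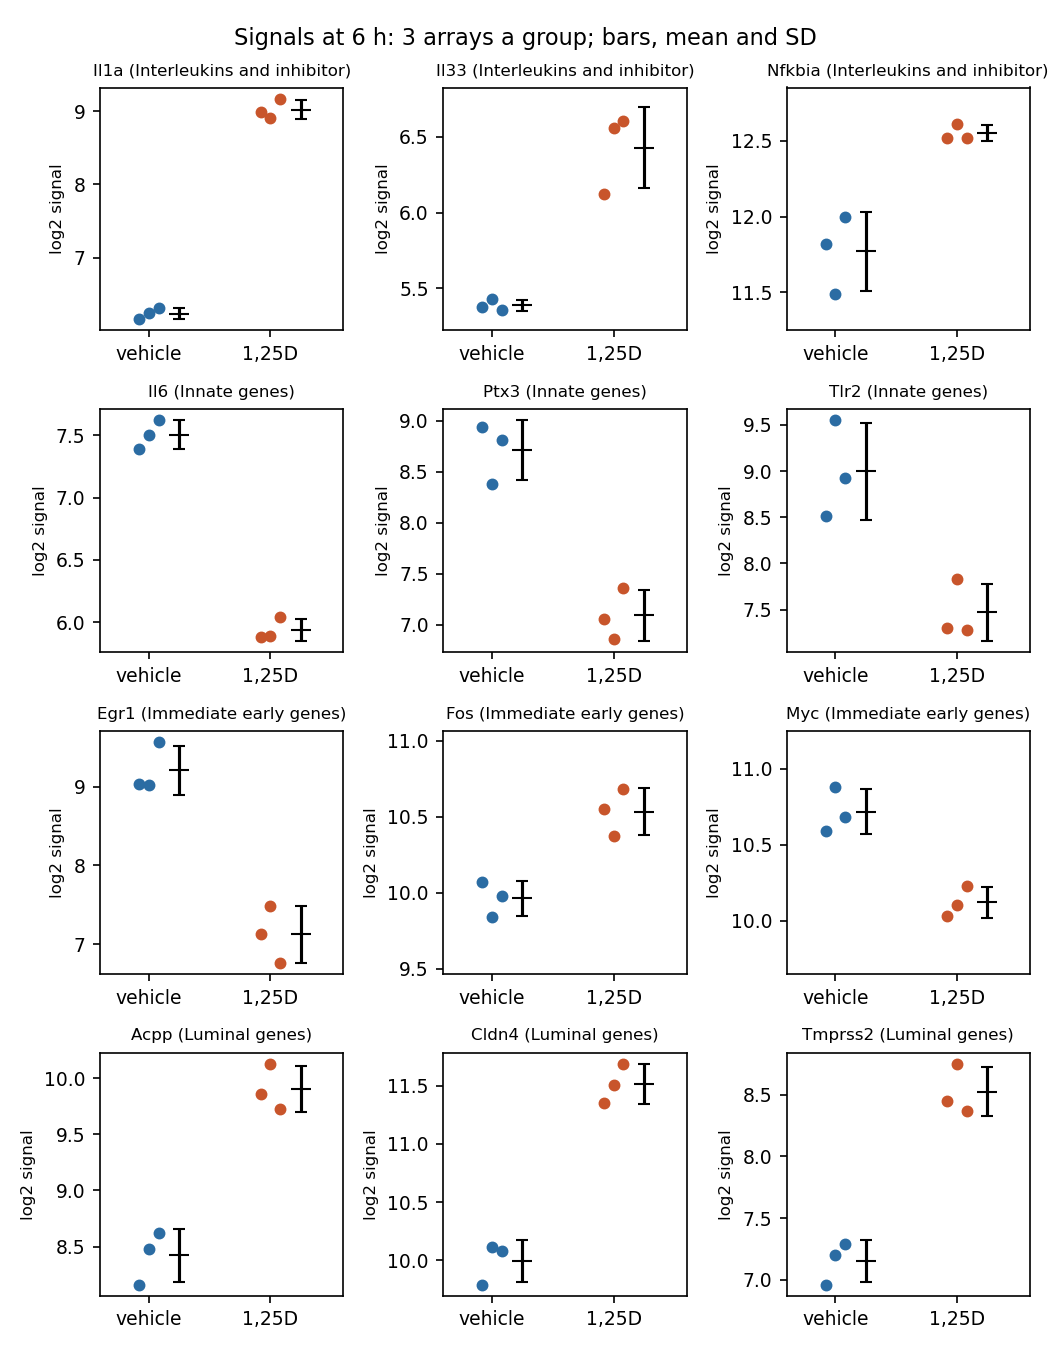
Log2 signal (vertical axes, each at its own range) of 12 genes in the 3 vehicle arrays (blue) and 3 1,25D arrays (orange) at 6 h, with the mean and SD in black beside the points. Il1a, Il33, Nfkbia, Fos, Acpp, Cldn4 and Tmprss2 are higher in every treated array and Il6, Ptx3, Tlr2, Egr1 and Myc lower in every one.

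Immediate early genes, which growth factors switch on within minutes through MAP kinases, split as well. Of 32 measured members 1 rose and 2 fell (median -0.11, 10 at an unadjusted p under 0.05), and without the 2 arrays that stand apart 1 rose and 4 fell. Egr1 fell, as given above, and its relative Egr2 changed by -0.92 (adjusted p = 0.0533 by limma). Myc, the growth regulator, fell from 10.59, 10.88 and 10.68 to 10.03, 10.10 and 10.23. Fos, a subunit of AP-1, rose from 10.07, 9.84 and 9.98 to 10.55, 10.37 and 10.68. Myc lost its call without V2, D1 or D2 (adjusted p up to 0.0915 by limma), and so did Fos without V2, D1 or D3 (up to 0.0985). Of 25 feedback inhibitors of ERK signalling 1 rose and 0 fell (median 0.03), the phosphatase gene Dusp14 (9.75, 9.39 and 9.07 to 10.53, 9.96 and 10.57). Its call was lost without any 1 of 9 arrays: V2, V3, D1, D3, any vehicle 48 h array and 1,25D 48 h arrays 1 and 3 (limma's adjusted p then reached 0.214). Errfi1 (0.54) and Dusp4 (0.84) did not pass the test (adjusted p = 0.0618 and 0.0814 by limma).

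Platelet-derived and vascular growth factor genes held 3 calls. Of the 21 measured growth factors and receptors 3 rose and 0 fell (median 0.05), and 3 were higher without the 2 arrays that stand apart too. Besides Pdgfb these were Nrp1, a coreceptor for semaphorins and VEGF (9.62, 9.42 and 9.82 to 10.91, 10.99 and 11.18), and Angptl4, an inhibitor of lipoprotein lipase (0.87). The 3 other probe sets of Nrp1 changed by 1.05, 1.27 and 0.68, whereas the other probe set of Angptl4 changed by 0.06. Angptl4 lost its call without V3, D1 or D3 (adjusted p up to 0.0658 by limma). Of 18 EGF receptor family genes and ligands and of 26 genes of the FGF and insulin-like growth factor system, 0 rose and 0 fell, with 5 and 5 members at an unadjusted p under 0.05. Igfbp5, which binds insulin-like growth factors, changed by -1.74 without passing the test (adjusted p = 0.103 by limma). Its vehicle arrays read 5.47, 7.23 and 6.82. Without the 2 arrays that stand apart Igfbp5 changed by -2.26 (adjusted p = 0.00144 by limma), the 1 lower member of the last list.

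Developmental pathways each held 1 or 2 called genes. Of 49 Wnt ligands, receptors and antagonists 1 rose, Apcdd1, and 0 fell (median -0.04). Leaving out the 2 arrays that stand apart gave 1 higher and 2 lower. Of 28 Notch genes 0 rose and 1 fell (median -0.09), the ligand Jag1 (9.0, 8.76 and 9.25 to 7.67, 8.09 and 8.05), which lost its call without D1 (adjusted p = 0.0543 by limma). Of 41 TGF-beta, activin and BMP genes 1 rose and 1 fell (median -0.06). Tgfbr3, the coreceptor betaglycan, rose from 6.50, 7.07 and 7.24 to 8.30, 8.61 and 8.25, and its other probe set changed by 0.13. Fst, the activin antagonist follistatin, fell from 11.89, 11.58 and 11.79 to 10.66, 10.61 and 10.97, and Inhba, which encodes an activin chain, changed by -1.0 (adjusted p = 0.0753 by limma). Of 26 Ccn genes and readouts of YAP or SRF 1 rose and 1 fell (median -0.08). The matricellular gene Ccn2 rose from 10.30, 10.10 and 10.28 to 11.03, 11.07 and 11.02, while its relative Ccn1 fell from 11.36, 11.33 and 11.48 to 11, 10.79 and 10.87. Ccn1 lost its call without V3, D2 or D3 (adjusted p up to 0.0808 by limma).

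Epithelial identity genes changed in a few members, with list medians near 0. Of 22 measured prostate luminal and secretory genes 4 rose and 0 fell (median 0.02). That is 18.2% of the list, where 0.687% of all genes were called higher. The lists were chosen with earlier results of these data known, so this share may be partly built in. The same count was found without the 2 arrays that stand apart. Acpp, prostatic acid phosphatase, went from 8.16, 8.48 and 8.62 to 9.86, 10.13 and 9.73, and its 2 other probe sets changed by 1.48 and 1.97. Cldn4, a claudin of tight junctions, went from 9.79, 10.11 and 10.08 to 11.35, 11.51 and 11.69. Tmprss2, a membrane serine protease, went from 6.96, 7.20 and 7.29 to 8.45, 8.75 and 8.37. Krt19 (0.80) lost its call without D1 or D3 (adjusted p up to 0.0713 by limma). Of 19 basal markers 0 rose and 1 fell (Jag1, median -0.11), and Krt5 changed by -0.36 (12.48, 13.05 and 12.85 in vehicle, 12.36, 12.64 and 12.31 in treated arrays, which overlap). Of 24 stem and progenitor cell markers 0 rose and 1 fell (Myc, median -0.06).

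Of 41 genes of epidermal-type differentiation 4 rose and 0 fell (median 0.04): Klk6, Sprr2h, Krt4 and Klk8. Leaving out the 2 arrays that stand apart gave 4 higher and 1 lower. Sprr2h, a small proline-rich envelope protein, went from 5.13, 6.00 and 6.00 to 7.12, 6.94 and 7.44, and its probe set may not tell it from close relatives. It lost its call without D3 (adjusted p = 0.057 by limma). Krt4, a keratin of mucosal epithelia, went from 5.55, 5.92 and 5.79 to 7.02, 6.73 and 6.96, and lost its call without D1 or D3 (adjusted p up to 0.0647 by limma). Klk8 (0.72) lost its call without V3, D1 or D3 (adjusted p up to 0.142 by limma). In 32 claudins and other junction genes 2 rose, Cldn4 and the adhesion molecule Jam2 (6.60, 7.02 and 6.92 to 7.87, 7.80 and 7.85), and 1 fell. These counts were 3 and 1 without the 2 arrays that stand apart. The fall was in the barrier claudin Cldn1, from 9.22, 9.62 and 9.32 to 8.17, 8.72 and 8.25. It lost its call without V2, D1 or D3 (adjusted p up to 0.12 by limma), and its other probe sets changed by 0.11, -0.30 and -0.90.

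Secreted proteases and matrix genes were counted in 5 lists. Of 30 kallikreins and other secreted serine proteases 3 rose and 0 fell (median 0.03): Klk6, Tmprss2 and Klk8. Leaving out the 2 arrays that stand apart gave 4 higher. Of 35 metalloproteinases, Adamts proteases and Timp inhibitors 0 rose and 3 fell (median -0.05). These were Timp3, Adamts1 and Adamts5, whereas the collagenase Mmp13 changed by 0.90 from a dim vehicle signal without passing the test (adjusted p = 0.0833 by limma). Prelp was the 1 call among 51 proteoglycans and collagens (median -0.03), and no collagen chain was called. In that list 1 member was lower without the 2 arrays that stand apart. Lama5, a laminin chain of basement membranes, was the 1 call among 28 integrins and laminins (9.79, 9.90 and 9.80 to 10.51, 10.37 and 10.41). Its other probe sets changed by 0.41 and -0.15, and 2 members of the list were lower without the 2 arrays that stand apart. Of 22 genes of plasminogen activation and coagulation 2 rose and 0 fell: F13a1, a transglutaminase that cross-links fibrin (4.67, 4.82 and 4.91 to 6.23, 6.49 and 6.01), and Procr, the receptor of protein C (9.54, 8.91 and 9.27 to 10.32, 10.10 and 10.52).

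**Figure D4:**
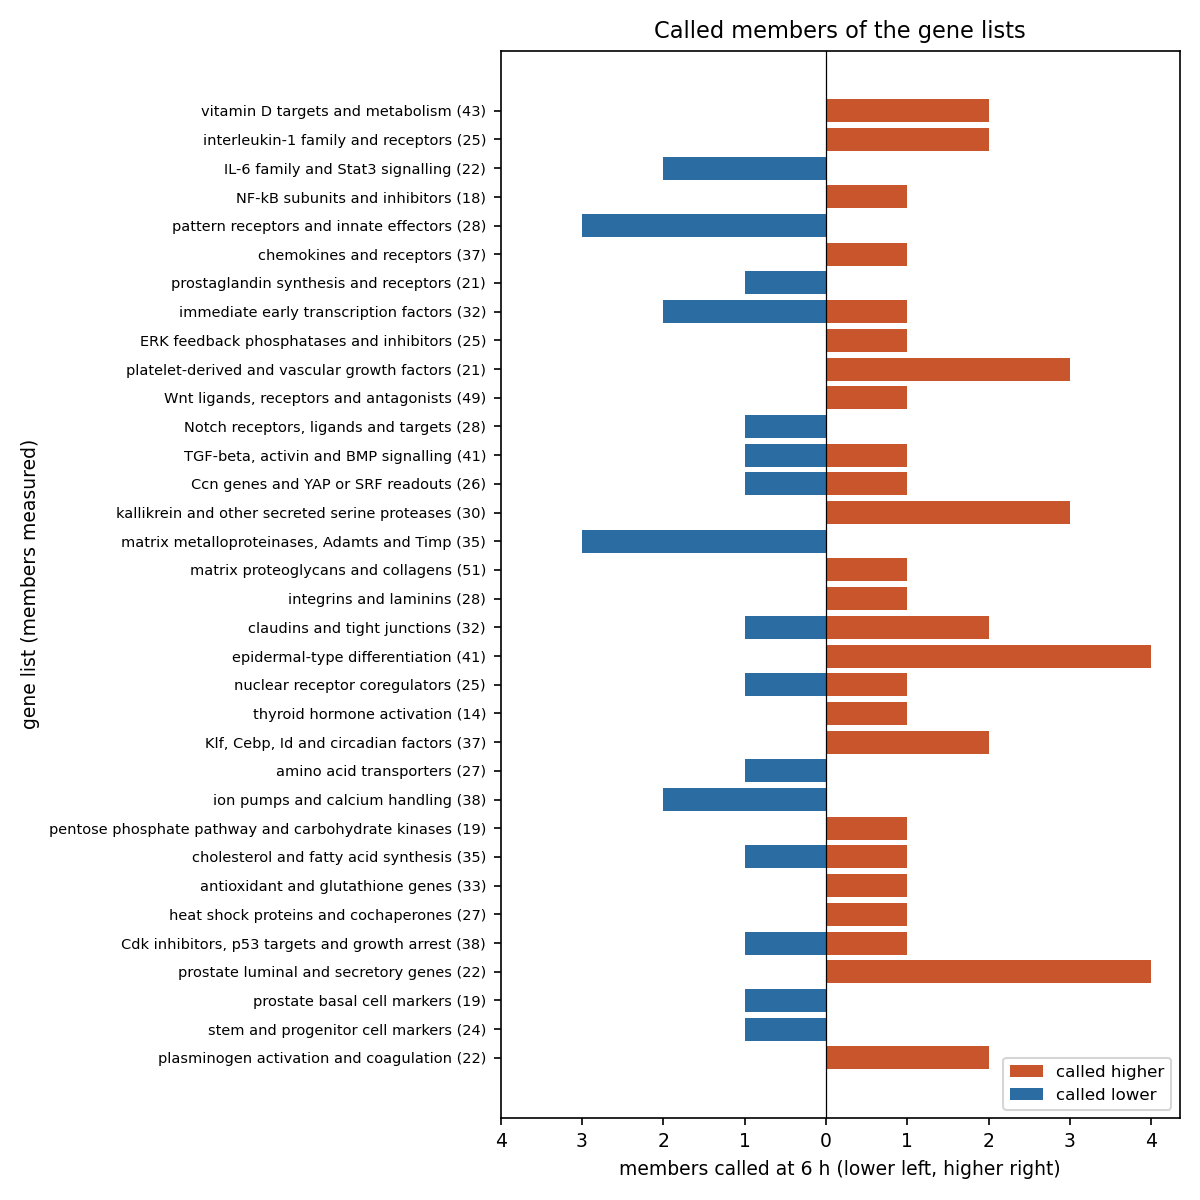
Number of members called at 6 h (horizontal axis, lower to the left in blue and higher to the right in orange) for each gene list with a call (vertical axis, with the number of measured members). Luminal and epidermal-type genes have 4 rises each and no fall. The innate effectors and the list of metalloproteinases, Adamts proteases and Timp inhibitors have 3 falls each and no rise. Some genes stand in more than 1 list, so bars can repeat a gene. Over all genes, 0.687% were called higher and 0.165% lower.

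Metabolic and transport lists held at most 2 calls each. Shpk was the only call among 19 genes of the pentose phosphate pathway and carbohydrate kinases (median 0.04), and Dio2 the only one among 14 genes of thyroid hormone activation (median -0.03). Of 35 cholesterol and fatty acid genes Insig2, a brake on sterol synthesis, rose (8.99, 9.13 and 9.18 to 10.19, 10.34 and 10.12) and Ch25h fell. The 2 other probe sets of Insig2 changed by 1.22 and 1.32. Gsr, which regenerates reduced glutathione, rose from 10.07, 9.97 and 10.22 to 10.97, 11.03 and 10.91, and was the 1 call among 33 antioxidant genes. Slc7a2 was the 1 call among 27 amino acid transporters, and 2 were lower without the 2 arrays that stand apart. Of 38 ion pumps and calcium genes 0 rose and 2 fell, Atp12a and the calcium channel Trpv4 (-0.61). Trpv4 lost its call without any 1 of 10 arrays, namely every 6 h array other than V1, every vehicle 48 h array and 1,25D 48 h replicates 1 and 3 (adjusted p up to 0.124 by limma). Of 34 genes of glycolysis and the hypoxia response 0 were called, with 8 at an unadjusted p under 0.05. Leaving out the 2 arrays that stand apart gave 1 lower.

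Stress, growth arrest and cell cycle lists held at most 2 calls each at 6 h. Of 27 heat shock genes 1 rose, Hsph1, which helps Hsp70 exchange nucleotide (11.98, 12.03 and 12.20 to 12.76, 12.85 and 12.67), and 0 of 31 genes of the unfolded protein response were called, with 9 at an unadjusted p under 0.05. Of 38 Cdk inhibitors, p53 targets and growth arrest genes 1 rose and 1 fell (median -0.03), with 13 at an unadjusted p under 0.05. The rise was Ccng2 and the fall the polo-like kinase Plk2 (11.27, 11.24 and 11.52 to 10.67, 10.69 and 10.86), which lost its call without D1 (adjusted p = 0.0543 by limma). In this list 2 were higher and 1 lower without the 2 arrays that stand apart. Neither the G1/S list (40 measured, median -0.06) nor the G2/M list (40 measured, median 0.03) held a call, with 4 and 1 members at an unadjusted p under 0.05. Over the G2/M list the changes ran from -0.25 to 0.36. Of 33 interferon-stimulated genes 0 were called, with 3 at an unadjusted p under 0.05. Leaving out the 2 arrays that stand apart gave 1 lower there.

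Transcriptional partners of nuclear receptors included 2 calls. Of 33 nuclear receptors other than Vdr 0 were called, with 3 at an unadjusted p under 0.05. Of 25 coregulators 1 rose and 1 fell (median -0.04). Nrip1, a corepressor of ligand-bound nuclear receptors, rose from 8.20, 8.79 and 8.72 to 9.81, 9.55 and 9.78, and its 5 other probe sets changed by -0.14 to 1.10. Cited4, which binds the coactivators CBP and p300, fell from 6.69, 6.92 and 6.90 to 5.39, 4.71 and 5.83, but its other probe set changed by 0.02. Cited4 lost its call without V2, V3, D1 or D2 (adjusted p up to 0.0802 by limma). In the list of vitamin D targets and metabolism 2 of 43 measured members rose and 0 fell (median -0.03), namely Cyp24a1 and Nrip1. Of 37 Klf, Cebp, Id and circadian factors 2 rose and 0 fell (median -0.19, 12 at an unadjusted p under 0.05): the repressor Klf3 (10.34, 10.50 and 10.43 to 10.92, 11.19 and 10.97) and Arntl (0.81), the clock factor that pairs with Clock. Arntl lost its call without V3, D2 or D3 (adjusted p up to 0.0736 by limma), and its other probe set changed by 0.29. In this list 2 were higher and 1 lower without the 2 arrays that stand apart.

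The 48 h arrays, from cells dosed every 24 h and with a vehicle group of their own, show how far the early changes were present later. At 48 h 2.39% of all genes were called. Of the 125 early rises, 112 were above 0 at 48 h and 50 were called higher again, where 49.2% and 1.43% of all genes were. Of the 30 early falls, 22 were below 0 and 9 were called lower, against 50.7% and 0.951% of all genes. The 59 genes called the same way at both times were 38.1% of the 6 h calls and 13.6% of the 434 calls at 48 h. The difference between the responses was itself tested and called in 34 of the 155 genes (21.9%), against 0.632% of all genes (0.346% with a positive and 0.286% with a negative difference). Over all genes this difference was called in 115, in 199 without the 2 arrays that stand apart, in 66 without 1,25D 6 h replicate 1 and in 75 without vehicle 48 h replicate 2. The response was smaller or opposite at 48 h in 18 of these rises and 9 of these falls, and larger in 7 rises. Since genes were taken for a change at 6 h, a smaller value at 48 h is partly built into the choice. Both tests also use the same estimate of a gene's spread, so part of the repeated calls may be built in too.

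Among rises with a smaller later response, Apcdd1 changed by 2.69 at 6 h and 0.18 at 48 h (difference -2.51, SE 0.24, adjusted p = 0.000181 by limma). Shpk changed by 2.31 and 0.17 (difference -2.14), Pdgfb by 1.94 and 0.34 (-1.60), Vstm5 by 2.53 and 0.97 (-1.57) and Nupr1 by 1.66 and 0.17 (-1.49). Cldn4 changed by 1.52 and -0.48 (difference -2.0, adjusted p = 0.000171 by limma), and Ccl6 by 1.11 and -0.81 (-1.92). Ccng2 changed by 1.73 and -0.18 (-1.91). In several of these genes the vehicle cultures themselves were higher at 48 h. The mean vehicle signal of Cldn4 was 9.99 at 6 h and 11.77 at 48 h, that of Ccng2 6.18 and 8.92, and that of Nupr1 9.86 and 12.23. Apcdd1 (5.54 and 5.96) and Shpk (6.55 and 6.87) had vehicle means closer together. Vehicle shifts were not particular to rises with a smaller later response. Among rises that were larger at 48 h, the vehicle mean of Il33 was 5.393 and 8.575 and that of Csta1 6.529 and 8.295. That of F13a1 was 4.802 and 4.667. A link between vehicle shift and response was not tested.

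Rises that were larger at 48 h included Krt4, with changes of 1.15 and 3.32 (difference 2.16, SE 0.26, adjusted p = 0.00121 by limma), and F13a1, with 1.44 and 3.44 (2.00, adjusted p = 0.00283). Il33 changed by 1.03 and 2.72 (1.68), the protease inhibitor Csta1 by 1.46 and 2.77 (1.31) and Dio2 by 2.85 and 4.10 (1.24). Among the falls, Il6 changed by -1.56 at 6 h and 0.34 at 48 h (difference 1.90, adjusted p = 0.000559 by limma). Slc7a2 changed by -1.37 and 0.00 (1.38), Jag1 by -1.07 and 0.29 (1.36) and Timp3 by -1.18 and -0.03 (1.15, adjusted p = 0.000884 by limma). Plk2 was the 1 gene called in opposite directions, with -0.60 at 6 h and 0.41 at 48 h. Il1a (2.78 and 2.28), Prelp (2.84 and 2.07), Adamts1 (-1.04 and -1.08) and Tgfbr3 (1.45 and 1.40) were called at both times, and their differences did not pass the test.

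**Figure D5:**
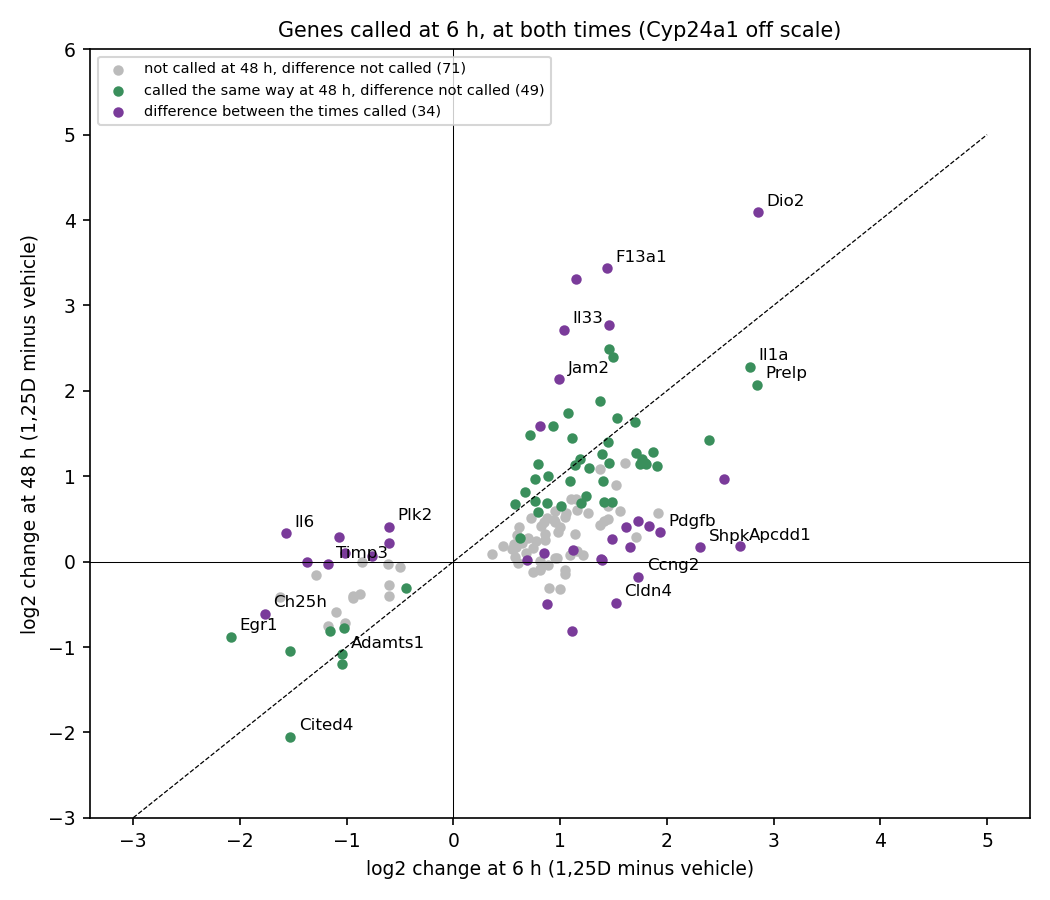
Log2 change at 48 h (vertical axis) against log2 change at 6 h (horizontal axis), 1,25D minus vehicle, for 154 of the 155 genes called at 6 h (Cyp24a1 is off scale), with a dashed line of equal change. Purple points are the 34 genes whose difference between the times was called, green points 49 genes called the same way at 48 h without a called difference, and grey points the other 71.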

How the data were processed

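Messenger RNA was measured on 13 mouse oligonucleotide arrays, 3 each for vehicle and 1,25D at 6 h and 3 and 4 at 48 h, grouped and numbered by sample titles. The authors' deposited values are log2 signals, used as given. The submitters' processing notes name MAS5, and the steps of background and scaling beyond that are not stated. Signals ran from about 3.05 to 14.45, and precision is limited by how many arrays there are. The table's probe sets were named through the platform annotation: of 45037 probe sets left after 64 controls, 34945 had 1 symbol, 932 several and 9160 none, and 34741 matched the GRCm38.p6 gene table. The array's genome build is not stated, and promoter coordinates are those of the RefSeq table.

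All 13 arrays entered 1 model of group means (limma 3.58.1 under R 4.3.3, lmFit, then eBayes with an intensity trend, two-sided), with contrasts for the 1,25D response at 6 h, that at 48 h and the difference between these responses. Benjamini-Hochberg adjustment ran over 45037 probe sets, and called means an adjusted p under 0.05. The fit was tested on simulated data. Exact permutation tests used scipy 1.17.1, and figures matplotlib 3.10.9 (Python 3.11.15).

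The genes named are the 25 largest rises and 15 largest falls among calls whose arrays separate (predicted and clone-named genes skipped), Cyp24a1, Vdr and Il1a, every called member of the lists described plus their 4 members ranked first by unadjusted p, where not called, and the 8 largest called differences between times in each direction among 6 h calls. The 46 lists hold 1416 entries, of which 1324 were measured. Members, lists and rules were chosen with earlier results of these data known, and the lists are described without a set test. Alternatives covered offsets, normalization, the intensity trend, dim probe sets, the arrays in the fit, array weights, the replicate number as a block, probe set choice, a minimum fold and each array left out.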

Additional observations from a re-analysis of the deposited data

Results flagged for a closer look

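For 34 genes under the naming rule the response to 1,25D at 48 h differed from that at 6 h in the limma test of the difference itself. All values are log2 changes at 48 h minus log2 changes at 6 h. Of these genes, 21 had risen at 6 h, 8 had fallen and 5 were not called at 6 h. Among the early rises, negative differences were found for Apcdd1 (-2.51), Shpk (-2.14), Cldn4 (-2.0), Ccl6 (-1.92), Ccng2 (-1.91), Pdgfb (-1.60), Vstm5 (-1.57), Nupr1 (-1.49), Dexi (-1.42), Angptl4 (-1.37), Adgra1 (-1.25), Tmem86a (-1.22), Insig2 (-0.98) and Hsph1 (-0.67). Positive differences were found for the early rises Krt4 (2.16), F13a1 (2.00), Il33 (1.68), Csta1 (1.31), Dio2 (1.24), Jam2 (1.14) and Ccn2 (0.78). Among the early falls the differences were positive for Il6 (1.90), Slc7a2 (1.38), Jag1 (1.36), Ch25h (1.16), Timp3 (1.15), Fst (1.11), Plk2 (1.01) and Myc (0.82). The genes not called at 6 h were the collagenase Mmp13 (3.38), the laminin chain Lama3 (1.38), the acute phase gene Saa3 (0.69), the spindle gene Nusap1 (-0.81) and the cytokine Lif (-1.12).

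Among probe sets with no gene symbol, which the named comparisons leave out, 10 were called at 6 h, 9 higher and 1 lower.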

How the results depend on the processing

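Of 27 alternative settings, all but the minimum fold and the per-gene median were run gene by gene, and the 75 named genes called at 6 h gave 1869 values, of which 1735 kept their direction and call, 133 kept the direction but lost the call, and 1 reversed: Cited4, at 0.02 (adjusted p = 0.9937 by limma) once probe sets prone to match several transcripts were dropped. With only the 6 h arrays in the fit, which leaves fewer arrays for the spread, 68 genes were called (59 higher, 9 lower) and 31 named calls were lost. Requiring a fold change of at least 1.5 left 35 (30 higher, 5 lower). Without the 2 arrays that stand apart 248 were called (108 lower), and the difference between times in 199. Array quality weights gave 79 lower. The cause of the last 2 shifts was not tested. Leaving out 1 array at a time gave 104 to 185 genes, 86 to 149 higher and 18 to 57 lower, and 66 to 130 for the difference between times. Same-numbered arrays at 6 h correlated at 0.273, 0.227 and 0.022 in their deviations from group means. Differently numbered arrays at 6 h ranged from -0.273 to 0.184. So few arrays cannot show whether equal numbers mark a pairing. With the replicate number as a block, 139 genes were called (110 higher, 29 lower), and 85 for the difference. The number of arrays and dim signals limit small changes.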
